A study of Mus musculus with 8 samples.

Results

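The data are RNA immunoprecipitation sequencing (RIP-seq) libraries from cells dissociated from the cortex of C57BL/6 mouse embryos at embryonic day 12.5. In RIP-seq, cells are lysed, an antibody retrieves a protein, and the RNA bound to the beads along with it is sequenced. The 4 Exosc10 libraries came from pull-downs with a rabbit antibody to Exosc10, a ribonuclease of the nuclear RNA exosome, and the 4 IgG libraries from mock pull-downs in which normal rabbit IgG took its place. The labels name no allele, transgene or drug in either group, and they leave unsaid if libraries of 1 group had litters or cultures of their own. P-values therefore measure the spread among these libraries, which may be technical. No input RNA was analysed here, so each value compares the contents of 2 pull-downs and is not an enrichment over the RNA of the cells.

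The genes described are 9 members of the Notch pathway, chosen by name out of the 54838 Ensembl gene IDs counted. The choice was made with earlier results of these data known. They are 3 receptors, Notch1 (ENSMUSG00000026923), Notch2 (ENSMUSG00000027878) and Notch3 (ENSMUSG00000038146), 3 ligands, Dll1 (ENSMUSG00000014773), Dll3 (ENSMUSG00000003436) and Jag1 (ENSMUSG00000027276), and 3 transcription factors of the Hes family, Hes1 (ENSMUSG00000022528), Hes5 (ENSMUSG00000048001) and Hes6 (ENSMUSG00000067071). The count files hold IDs without symbols, and the symbols are those paired with the IDs when the genes were chosen. All 9 passed the filter on low counts, which left 16716 genes to test.

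In the Notch pathway a ligand on one cell binds a receptor on its neighbour, and the receptor is then cut so that its intracellular domain enters the nucleus. There the domain joins the DNA-binding protein RBPJ and turns on target genes, of which Hes1 and Hes5 are the best known. In the embryonic cortex these repressors hold radial glia, the neural progenitors, in an undifferentiated state, while neighbouring cells that make more Dll1 go on to become neurons. Hes6 differs from its relatives: it counteracts Hes1 and favours neuronal differentiation.

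RBPJ recognises the letters GTGGGAA, or GTGAGAA, and of the 8 members searched, which leave out Hes1, Hes5 held GTGGGAA in the 250 bases before its RefSeq transcription start (GRCm38.p6; both strands searched). The 2 stretches are shown as an example of the letters by which the pathway is known to reach a target gene. They are written 5′ to 3′ on the plus strand, with the matching letters in capitals. The first match is on the minus strand and begins 226 bases before the start site, and the second is on the plus strand and begins 83 bases before it.
Hes5 chr4:154960687-154960713: ggcgagcgcgTTCCCACagcccggaca
Hes5 chr4:154960830-154960856: gccgccgagtGTGGGAAcggccgcggc
Both stretches fall inside the RefSeq span of the gene, which begins at 154960626, ahead of the start site used. The other 7 members searched held neither motif in any of their promoters, and Dll1 and Hes6 have more than 1 promoter each. Over all 32851 promoters of the same length, 9.01% held 1 of these motifs. A match describes the letters alone, and RIP-seq measures RNA, not binding to these sites.

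Of the 9 genes, 5 were higher in the Exosc10 pull-down and 0 were lower (edgeR quasi-likelihood test without pairing by library number, adjusted p under 0.05). Over all 16716 tested genes, 7.92% were called higher and 5.82% lower. The count of 5 changed when 1 library was left out. It was 1 without Exosc10 library 4 or IgG library 2, and 2 without Exosc10 library 2 or 3 or IgG library 3 or 4. It was 5 without IgG library 1 and 6 without Exosc10 library 1. Calls higher over all tested genes moved too, from 1324 to 619 without Exosc10 library 4 and 798 without IgG library 2. They were 666 and 897 without Exosc10 library 2 or 3, and 588 and 650 without IgG library 3 or 4. Without IgG library 1 they were 2218, and without Exosc10 library 1 they were 1642. None of these fits used the library number, though all 8 libraries were most like their own number in the other group. With the number as a block and all libraries kept, 6 members and 2489 of all tested genes were called higher. Leaving out libraries was not tried with the block. In the fit without it, the 3 receptors, the ligand Dll1 and the Hes gene Hes5 rose, by 1.63-fold to 2.20-fold. Jag1 and Dll3 were 1.51-fold and 1.37-fold higher without passing the test, and Hes6 and Hes1 had fold changes of 1.04 and 0.874. The median log2 fold change of the 9 genes was 0.71, against -0.03 for all tested genes. At the same abundance, a mean between 60.3 and 254 CPM (counts scaled to a common library total), 13.8% of the 3964 tested genes were called higher and 6.23% lower. The median log2 fold change of that band was 0.09. Because values are scaled to the library, a higher gene took a larger part of its pull-down and need not have been recovered in a larger amount. The lysates were of mixed cells, and the groups differ by antibody. RNA held by Exosc10 and RNA bound otherwise to an antibody or the beads cannot be told apart here. Nor can a difference in the cells that entered a lysate or in RNA per cell.

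The 9 genes together took 0.171% to 0.192% of all counts in the Exosc10 libraries and 0.102% to 0.128% in the IgG libraries. The groups did not overlap in this share, which describes genes chosen by name and was not tested. Library totals were 21731971 to 34506709 counts in the Exosc10 group and 20967743 to 30199449 in the IgG group. A single gene rested on 1089 to 13422 counts in an Exosc10 library and on 956 to 7127 in an IgG library. Counting error alone was therefore 0.863% to 3.23% of a value, well under the spread between libraries of a group, which ran from 11.4% to 34.9% of the mean in the Exosc10 group and from 8.21% to 25.6% in the IgG group. The choice of scaling moved the balance of calls over all genes, from 1324 higher and 973 lower with the trimmed mean of M-values to 1025 higher and 1369 lower with the upper quartile, while the count of 5 higher members was the same under both.

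**Figure D1:**
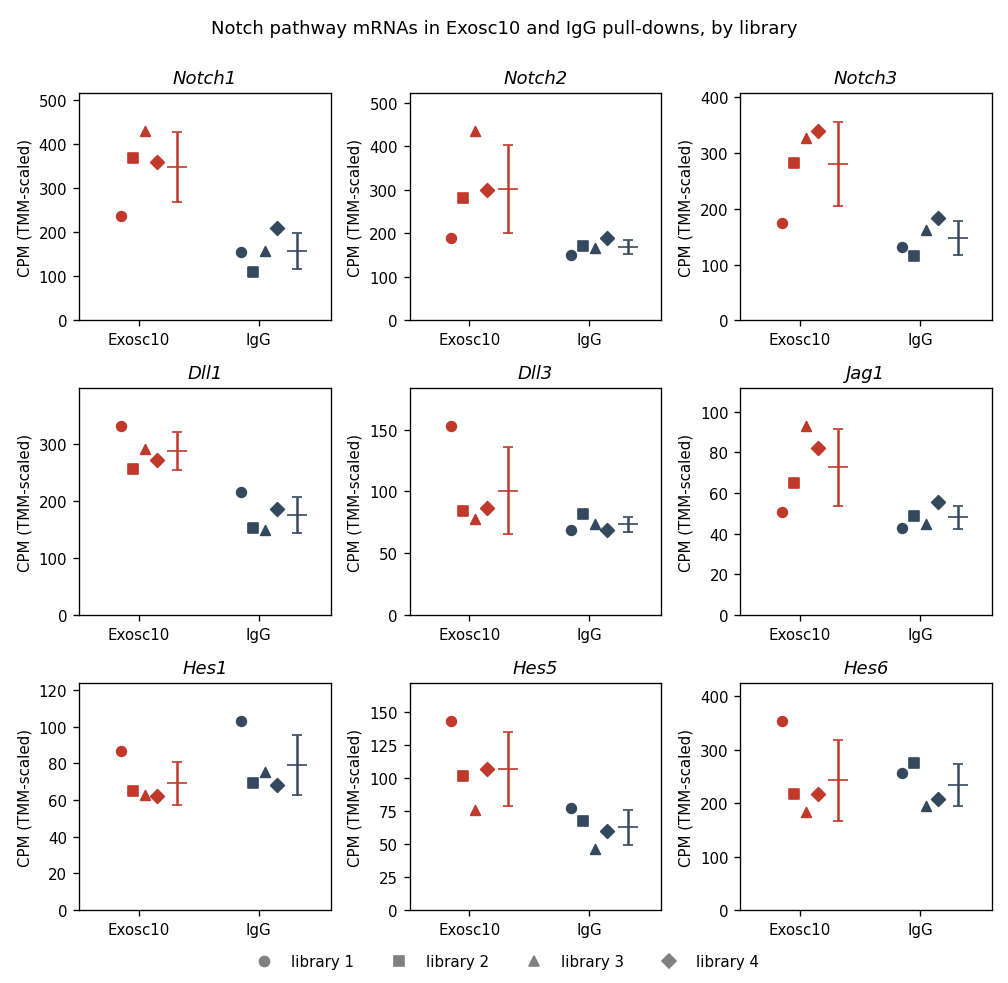
TMM-scaled CPM (vertical axes, starting at 0) of each of the 9 genes in the 4 Exosc10 and the 4 IgG libraries. Symbols mark the library number, and the bar beside them is the mean ± SD (n = 4). The Exosc10 points lie above all IgG points for Notch1, Notch2 and Dll1.

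Notch1, a receptor of cortical progenitors, showed the largest difference of the 9 genes. Its gene lies at chr2:26457902-26503822 (GRCm38.p6). It stood at 238, 368, 430 and 359 CPM in Exosc10 libraries 1 to 4, against 157, 110, 158 and 209 CPM in IgG libraries 1 to 4. Every Exosc10 library was above every IgG library, and Exosc10 library 1 was the lowest of its group. The Exosc10 mean was 349 ± 80.3 CPM and the IgG mean 159 ± 40.6 CPM (SD, n = 4 each). The log2 fold change was 1.14 ± 0.23 (SE, 95% interval 0.65 to 1.63), with an adjusted p of 0.00714 in edgeR's test. Among all tested genes 1.82% had a higher log2 fold change. Notch1 kept its call in all 17 alternatives, with log2 fold changes of 1.00 to 1.30.

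Notch3, a receptor best known from the muscle cells of blood vessels and also made by neural progenitors, lies at chr17:32120820-32166896. It stood at 174, 282, 327 and 339 CPM in the Exosc10 libraries, against 131, 116, 161 and 184 CPM in the IgG libraries. The groups overlapped through Exosc10 library 1, which was below IgG library 4, and the other 3 Exosc10 libraries were above all IgG libraries. On the log2 scale the difference was 0.92 ± 0.23 (SE), its interval ran from 0.43 to 1.41, and edgeR's adjusted p was 0.0190. The call was lost without Exosc10 library 2, 3 or 4 or IgG library 2, where the log2 fold change was 0.83 to 0.93 and the adjusted p 0.0517 to 0.0687.

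Notch2, the receptor at chr3:98013538-98150367, stood at 189, 281, 434 and 300 CPM in the Exosc10 libraries, against 150, 170, 166 and 189 CPM in the IgG libraries. The groups did not overlap, but the lowest Exosc10 library, at 189.2 CPM, barely exceeded the highest IgG library, at 188.9 CPM. The Exosc10 values were spread far wider than the IgG values, with means of 301 ± 101 CPM for Exosc10 and 169 ± 15.8 CPM for IgG (SD, n = 4 each). It was higher by 0.83 ± 0.23 (SE) on the log2 scale with Exosc10 than with IgG, in an interval of 0.35 to 1.32; edgeR's adjusted p was 0.0267. The call rested on many of the libraries: it was lost without Exosc10 library 2, 3 or 4 and without IgG library 2, 3 or 4, at log2 fold changes of 0.61 to 0.89 and an adjusted p of 0.0584 to 0.0805.

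All 3 receptors thus rose, and they were the 3 members with the largest log2 fold changes. No receptor pair passed the test of its difference. After adjustment none of the 9 pairs tested could pass unless at least 6 reached the smallest possible p. The log2 ratio of Notch1 to Notch2 counts was higher with Exosc10 than with IgG by 0.36 ± 0.20 (SE), and that of Notch1 to Notch3 by 0.24 ± 0.12 (SE). An exact permutation test, two-sided over all 70 assignments of libraries, gave p = 0.0857 for each, or 0.193 adjusted over the 9 pairs tested within roles. Notch2 over Notch3 differed by -0.12 ± 0.17 (SE; exact permutation p = 0.457, adjusted 0.588). A ratio of 2 genes within a library does not depend on how libraries are scaled.

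**Figure D2:**
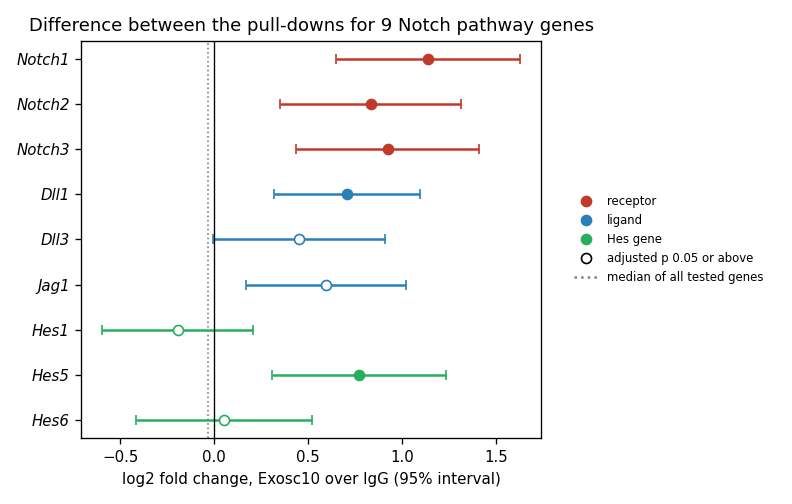
Log2 fold change of each gene, Exosc10 over IgG, with its 95% confidence interval from edgeR. Filled points passed an adjusted p of 0.05 (Notch1, Notch2, Notch3, Dll1 and Hes5), open points did not, and the dotted line is the median of all tested genes at -0.03.

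Of the ligands, Dll1 alone passed the test. Dll1, the ligand by which newborn neurons and committed progenitors signal to radial glia, lies at chr17:15367354-15376932. It stood at 332, 256, 292 and 273 CPM in the Exosc10 libraries, against 216, 153, 150 and 187 CPM in the IgG libraries. The groups did not overlap, and library 1 was the highest of both. The Exosc10 mean was 288 ± 32.8 CPM and the IgG mean 177 ± 31.4 CPM (SD, n = 4 each). This is a log2 difference of 0.71 ± 0.18 (SE) in an interval of 0.32 to 1.10, with 0.0220 as the adjusted p in edgeR. Its call was lost without Exosc10 library 3 or 4 and without IgG library 2, 3 or 4, with log2 fold changes of 0.64 to 0.74 and an adjusted p of 0.0501 to 0.0738.

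Jag1, a ligand of the Jagged class at chr2:137081451-137116520, missed the threshold. It stood at 50.4, 64.8, 92.8 and 82.3 CPM in the Exosc10 libraries, against 42.9, 48.7, 44.6 and 55.7 CPM in the IgG libraries. Only Exosc10 library 1 fell within the IgG range. On the log2 scale the difference was 0.60 ± 0.20 (SE), its interval ran from 0.17 to 1.02, and edgeR's adjusted p was 0.0602. Without Exosc10 library 1 it was 0.74, with an adjusted p of 0.0117. Over the 17 alternatives the adjusted p ran from 0.00339 to 0.164, and Jag1 passed in 6 of them.

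Dll3 differs from the other ligands in that it acts within the cell that makes it, where it inhibits Notch signalling. Its gene lies at chr7:28293555-28301785. It stood at 153, 84.3, 78.0 and 86.8 CPM in the Exosc10 libraries, against 69.0, 81.9, 73.5 and 69.1 CPM in the IgG libraries. Exosc10 library 1 was far above every other library, and the other Exosc10 libraries lay within or just above the IgG range. Its log2 difference was 0.45 ± 0.21 (SE), and the interval reached from just under 0 to 0.91 (edgeR adjusted p = 0.168). Without Exosc10 library 1 it was 0.18 (edgeR adjusted p = 0.424).

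None of the 3 ligand pairs passed the test of its difference, under the same limit of at least 6 pairs at the smallest possible p. The log2 ratio of Dll1 to Dll3 was higher with Exosc10 than with IgG by 0.32 ± 0.24 (SE; exact permutation p = 0.200, adjusted 0.360). The difference was 0.15 ± 0.29 for Dll1 over Jag1 and -0.17 ± 0.42 for Dll3 over Jag1 (SE; exact permutation p = 0.657 and 0.714, adjusted 0.714 each). The last 2 changed sign when 1 library was left out, to -0.08 for Dll1 over Jag1 without Exosc10 library 1 and to 0.07 for Dll3 over Jag1 without Exosc10 library 3.

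Among the Hes genes, Hes5 rose, and Hes1 and Hes6 did not pass the test. Hes5, a target gene of the pathway, lies at chr4:154960626-154962372. It stood at 143, 101, 75.8 and 107 CPM in the Exosc10 libraries, against 77.3, 67.3, 45.8 and 59.4 CPM in the IgG libraries. The groups overlapped only in that Exosc10 library 3 was just below IgG library 1, and library 3 was the lowest of both groups. The Exosc10 mean was 107 ± 27.7 CPM and the IgG mean 62.5 ± 13.3 CPM (SD, n = 4 each). This is a log2 difference of 0.77 ± 0.22 (SE) in an interval of 0.31 to 1.23, with 0.0312 as the adjusted p in edgeR. The call was lost without Exosc10 library 2 or 4 and without IgG library 2, 3 or 4, with log2 fold changes of 0.65 to 0.81 and an adjusted p of 0.0647 to 0.0998.

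Hes1, the other classical target of the pathway, lies at chr16:30065357-30067796. It stood at 86.5, 65.1, 62.6 and 62.2 CPM in the Exosc10 libraries, against 103, 69.4, 75.3 and 68.4 CPM in the IgG libraries. Library 1 was the highest in both groups, and the ranges overlapped. Its log2 fold change, -0.19 ± 0.19 (SE), had an adjusted p of 0.519 in edgeR, and the interval, 0.662-fold to 1.15-fold, does not include a 2-fold difference either way.

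Hes6, the antagonist of Hes1, lies at chr1:91411483-91414038. It stood at 354, 216, 183 and 218 CPM in the Exosc10 libraries, against 257, 275, 195 and 208 CPM in the IgG libraries. The highest and the lowest values were both Exosc10 libraries. The log2 fold change was 0.05 ± 0.22 (SE, edgeR adjusted p = 0.899), with an interval of 0.750-fold to 1.44-fold. Its sign was not settled: 5 of the 17 alternatives turned it, among them -0.18 without Exosc10 library 1 and -0.02 without IgG library 3 or with upper-quartile scaling.

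The Hes genes were also compared with each other inside each library. For each Hes5 read there were 0.605, 0.645, 0.825 and 0.583 Hes1 reads in Exosc10 libraries 1 to 4, against 1.33, 1.03, 1.64 and 1.15 in IgG libraries 1 to 4. All Exosc10 libraries thus held more Hes5 than Hes1 counts, and all IgG libraries held more Hes1 than Hes5 counts. If the lengths of the 2 transcripts enter both groups alike, the change in the ratio is interpretable, while the ratio itself is not a ratio of molecules. Whether they do was not tested. The log2 ratio of Hes1 to Hes5 differed by -0.95 ± 0.18 (SE) between the Exosc10 and IgG groups.

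For each Hes6 read there were 0.404, 0.467, 0.414 and 0.491 Hes5 reads in the Exosc10 libraries, against 0.301, 0.245, 0.236 and 0.286 in the IgG libraries. These ratios were the most uniform of the 3 Hes pairs, and the groups did not overlap. The log2 ratio of Hes5 to Hes6 was higher with Exosc10 by 0.74 ± 0.11 (SE). For both Hes5 pairs the exact two-sided permutation test gave p = 0.0286, the smallest that 4 libraries against 4 can give, and 0.129 after adjustment over the 9 pairs, which does not pass 0.05. Hes1 over Hes6 differed by -0.21 ± 0.18 (SE; exact permutation p = 0.343, adjusted 0.514). Of the 9 pairs 0 passed after adjustment, and 2 had an unadjusted p under 0.05. With 9 pairs none can pass unless at least 6 reach the smallest p, so these tests do not show that any pair behaved alike.

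**Figure D3:**
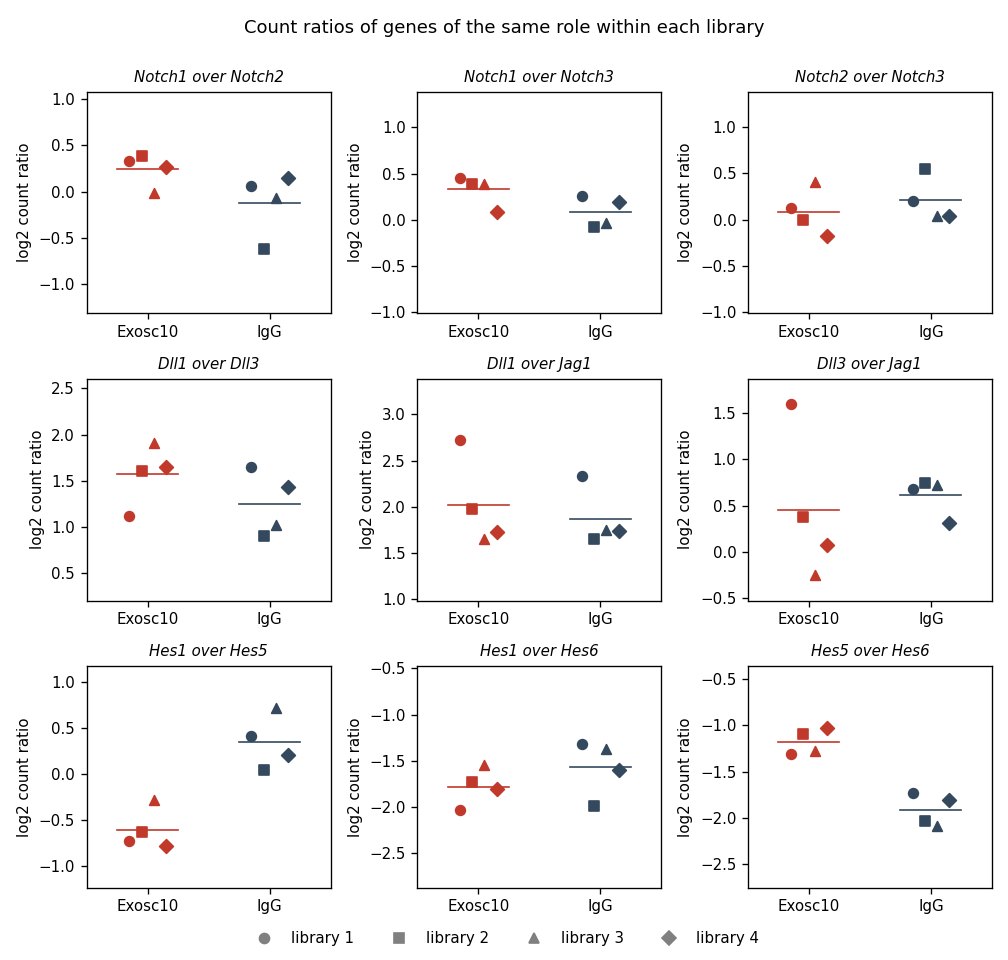
Log2 ratio of the raw counts of 2 genes of the same role within each library (vertical axes, each spanning the same range of log2 units), for the Exosc10 and IgG libraries, with group means as lines. The groups are apart for Hes1 over Hes5 and Hes5 over Hes6, and overlap in the other 7 pairs.

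No group overlap was seen for 3 of the 9 genes, Notch1, Notch2 and Dll1, each with the Exosc10 libraries above. Over all tested genes the Exosc10 libraries were all above the IgG libraries in 10.6% and all below in 8.45%. At the abundance of the members the first share was 17.4%, and 298 of the 3964 genes had all Exosc10 libraries below.

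As a share of the counts of the 9 genes, the receptors held 35.0%, 54.2%, 60.3% and 54.6% in Exosc10 libraries 1 to 4, against 36.4%, 36.2%, 45.4% and 47.4% in IgG libraries 1 to 4. Exosc10 library 1 had the lowest receptor share of all 8 libraries, and the other 3 Exosc10 libraries had the highest. The Hes genes held 33.9%, 22.2%, 16.3% and 21.2% in the Exosc10 libraries, against 36.3%, 37.8%, 29.5% and 27.3% in the IgG libraries. Exosc10 library 1 was again apart from its group, and its Hes share was within the IgG range. The 3 shares add up to the whole in each library, so the Hes shares are not an observation separate from the receptor shares. A lower Hes share need not be less Hes RNA, as Hes5, Hes6 and Hes1 had fold changes of 1.71, 1.04 and 0.874. The ligands' share was 25.6% ± 3.72 with Exosc10 and 25.9% ± 0.988 with IgG (SD, n = 4 each). Long transcripts give more reads, so a share compares libraries and not genes.

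**Figure D4:**
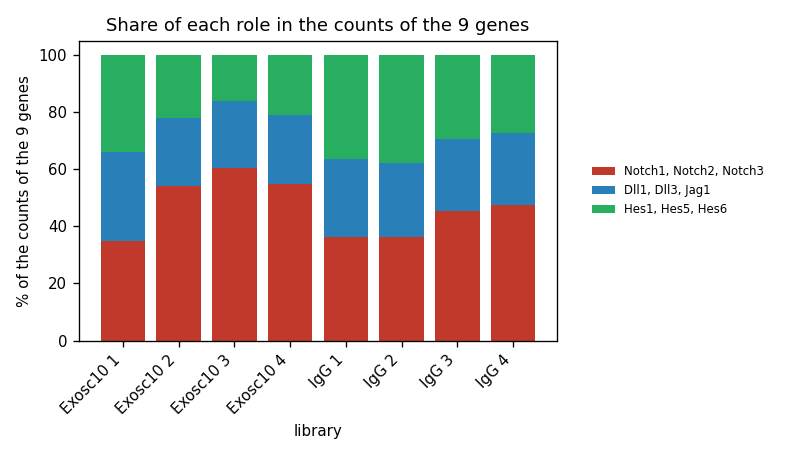
Share of the counts of the 9 genes held by the 3 receptors, the 3 ligands and the 3 Hes genes in each library, in percent. In Exosc10 libraries 2 to 4 the receptors held over 54% of the counts, and in Exosc10 library 1 they held 35.0%, close to the lowest IgG libraries.

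Exosc10 library 1 was the lowest of its group for 4 genes, Notch1, Notch2, Notch3 and Jag1, and the highest of its group for the other 5. Without it, the log2 fold changes of Notch1, Notch2 and Notch3 were 1.29, 1.01 and 1.10, those of Dll1 and Hes5 were 0.64 and 0.61, and 6 of the 9 genes were called higher. The likeness of 2 genes was measured as Pearson's r of their log2 CPM deviations from the group means over the 8 libraries, as a description without a test. Notch1 was most like Notch3, with r = 0.90, Notch2 and Jag1 were most like each other, with r = 0.94, and Hes5 and Hes6 were most like each other, with r = 0.90. Dll3 was most like Hes6, with r = 0.89, and Hes1 and Dll1 were most like each other, with r = 0.75, which turned to -0.71 without both libraries numbered 1.

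Among Notch1, Notch2, Notch3 and Jag1 the 6 correlations ran from 0.69 to 0.94. Among Dll3, Hes1, Hes5 and Hes6 the 6 ran from 0.51 to 0.90. Between these sets, which were put together after the values were seen, all 16 were below 0, from -0.94 to -0.41. Over the 6 libraries left without both numbered 1, the 16 were below 0, from -0.96 to -0.08. The first 6 correlations then ran from 0.33 to 0.90, but those among Dll3 and the Hes genes ran from -0.51 to 0.88, with 2 below 0. The 6 libraries are among the 8 from which the sets were put together, so they are no separate check of the sets. The 8 correlations of Dll1 with the other genes ran from -0.31 to 0.75 over all libraries and from -0.71 to 0.84 without those numbered 1, where that with Jag1 was 0.84 in place of -0.26. Exosc10 library 1 is among the 8 libraries, so the correlations over all of them are no check of where it stood. All points share libraries and their scaling, so the correlations are not independent of each other. They were not compared with those of other genes, so they are not shown to be particular to these genes.

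**Figure D5:**
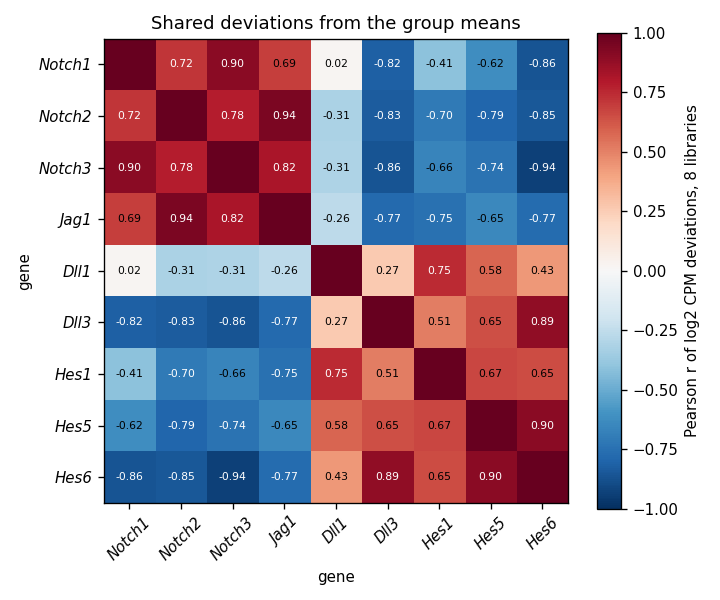
Pearson's r between the log2 CPM deviations of each pair of genes from their group means, over the 8 libraries. Notch1, Notch2, Notch3 and Jag1 correlate positively with each other and negatively with Dll3, Hes1, Hes5 and Hes6, while Dll1 ran from -0.31 to 0.75 with the others.

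The length of the genes moved with this pattern. Notch1, Notch2, Notch3 and Jag1 have the longest RefSeq spans of the 9 genes, 45921, 136830, 46077 and 35070 bases. Those of Dll1 and Dll3 are 9579 and 8231 bases, and those of Hes1, Hes5 and Hes6 are 2440, 1747 and 2556 bases. Across the 9 genes, Spearman's rho between span and log2 fold change was 0.67, given as a description of these genes. Hes5, with the shortest span, had the fourth largest fold change. The part of gene length in the differences was not tested, because the IDs of the other genes could not be joined to the RefSeq table.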

How the data were processed

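The authors deposited read counts per Ensembl gene ID, 1 file per library, with no normalization. Per the submitters' processing notes, the build was mm10 and the software comprised featureCounts (1.5.0-p1), STAR (2.5.2a) and bcl2fastq (2.17.1.14). How strand and multi-mapping reads were handled, and which annotation was used, is not given in the sources used here, so overlapping or antisense genes cannot be told apart from the members. Groups and library numbers came from the sample titles.

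The test was edgeR's quasi-likelihood F-test (edgeR 4.0.16, R 4.3.3) over all 8 libraries without covariates, after filterByExpr (minimum count 10, minimum total 15) and TMM scaling (trimmed mean of M-values). P-values were adjusted by Benjamini-Hochberg over 16716 genes. CPM is counts over the TMM-scaled total. Log2 CPM had a prior count of 2 and count ratios a prior of 0.5. Each SE is the log2 fold change over the square root of F. Alternatives were DESeq2 1.42.0, sample-weighted limma-voom (limma 3.58.1), other scalings and filters, the library number as a block, and leaving out libraries. The fit was also run on simulated counts of independent libraries with known changes. The outcome of that run is not given here.

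Gene positions and promoter letters are from RefSeq (GRCm38.p6, the assembly that mm10 names), matched by symbol for the members. That table holds no Ensembl IDs, so other Notch pathway genes, Exosc10 and the cell type markers that had been listed were not analysed here, and the cortical identity of the cells was not checked. All 9 members are named. The members, lists and tests were chosen with earlier results of these data known.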

Additional observations from a re-analysis of the deposited data

Results flagged for a closer look

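Among 36 groups of 4 libraries, the CPM of each gene and the within-role ratios in each pull-down, 4 held a library far from the other 3 by Dixon's test. Chance gives about 5% of groups. Dll3 in Exosc10 library 1 stood at 153 CPM, against 78.0 to 86.8 CPM in the other Exosc10 libraries. Hes1 in Exosc10 library 1 stood at 86.5 CPM, against 62.2 to 65.1 CPM in the others. The log2 ratio of Dll1 to Jag1 was 2.33 in IgG library 1, and that of Dll3 to Jag1 was 0.31 in IgG library 4.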

How the results depend on the processing

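Over 17 alternatives, 8 of the 9 genes kept the sign of their fold change in every one. Hes6 turned, to -0.0077 with limma-voom and sample weights, -0.0195 with the upper quartile, -0.18 without Exosc10 library 1, -0.02 without IgG library 3 and -0.14 without both libraries numbered 1, with no call in any, and leaving out 1 library gave -0.18 to 0.17. The number of members called higher was 5 or 6 in the alternatives that kept all libraries and 6 without both libraries numbered 1. It was 6 with DESeq2, limma-voom, the replicate block and no filter. All tested genes called higher were then 1869, 3363, 2489 and, without the filter, 1697 of 30694. It was 5 with the other scalings and the filter on mean CPM, where 1025 to 1340 of all tested genes were called higher. It ran from 1 to 6 when 1 library was left out, with 1 without Exosc10 library 4 or IgG library 2 and 6 without Exosc10 library 1. No alternative called a member lower.

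Calls over all genes, 2297 (1324 higher, 973 lower), became 6374 with limma-voom and sample weights together (3363 and 3011), 4495 with the replicate block (2489 and 2006) and 5463 without both libraries numbered 1 (2908 and 2555), and the cause was not tested. DESeq2 called 1869 higher and 1522 lower. Leaving out 1 library gave 880 to 4046 calls, 588 to 2218 higher and 261 to 1828 lower.

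Deviations from the group means correlated between same-numbered libraries at 0.34, 0.095, 0.34 and 0.22 for numbers 1 to 4. The numbers were not taken as pairs because number 2 was under the minimum set, 0.1. All 8 libraries were nonetheless most like their own number in the other group. With the replicate block 6 members were higher, Jag1 added at an adjusted p of 0.0170. The members called in the main fit had a lower adjusted p with the block, from 0.00112 for Notch1 to 0.00544 for Notch2 (edgeR). Of the 9 pairs, 0 passed with a prior of 5, without any 1 library, or by sign-flips within numbers (replicate block). These zeros say nothing about stability, because at least 6 pairs had to reach the smallest p for any to pass, and by sign-flips none could. Leaving out 1 library moved the difference of Dll1 over Jag1 to between -0.0821 and 0.306 (the low end without Exosc10 library 1), and that of Dll3 over Jag1 to between -0.548 and 0.0685 (the high end without Exosc10 library 3).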
